A study of Mus musculus with 14 samples.

Results

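Granulosa cells, the somatic cells that line the ovarian follicle, surround the oocyte and make oestradiol, were compared here between leptin-deficient ob/ob and leptin-receptor-deficient db/db mice. The comparison covered 7 of the 14 RNA-seq libraries of the study, chosen by genotype alone: 3 ob/ob libraries (obHOM_106, obHOM_41 and obHOM_50) and 4 db/db libraries (HOM_24, HOM_53, HOM_68 and HOM_81). The ob/ob mice were of the strain B6.Cg-Lepob/J and the db/db mice of the strain B6.BKS(D)-Leprdb/J, whose name records BKS as the donor of the mutant allele. All were females kept on chow to 12 wk of age, and homozygous for their mutation. Cells came from punctured antral follicles after the oocytes had been stripped and removed, with about 50 cells per library, and poly(A) RNA was amplified before sequencing. The other 7 libraries were lean controls from the 2 colonies, 3 for ob/ob (CT ob) and 4 for db/db (CT db); their labels read wild type, whereas their columns in the count table read het, and which of these holds is not known. The labels do not name the animal behind each library, so p-values measure the spread between libraries, part of which may be technical.

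Leptin is a hormone of adipose tissue that reports fat stores to the brain, and its receptor signals through JAK2 and STAT3. Mice without the hormone and mice without the long receptor form eat in excess, become obese and diabetic, and the females are infertile. In db/db mice leptin is made and circulates at high levels but cannot act through the long receptor, whereas ob/ob mice keep an intact receptor with no functional ligand. A contrast of the mutants therefore compares lack of the ligand with lack of its long receptor form. The mutants also differ in strain and colony, which the contrast cannot separate from the mutations.

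The targeted genes were read first. Lep (chr6:29060216-29073877) had no count in any db/db library, in obHOM_106 or in obHOM_41, and 3 counts in obHOM_50. Lepr (chr4:101574601-101676237) stood at 2.93, 0.554 and 1.48 CPM (counts normalised to a common library size) in obHOM_106, obHOM_41 and obHOM_50, the order in which ob/ob values are given from here on. In HOM_24, HOM_53, HOM_68 and HOM_81, the order used for db/db, Lepr stood at 0, 0.860, 1.30 and 0.938 CPM. The Lepr levels of the groups overlapped, and both genes were too low for the test across genes. Counts summed over a whole gene cannot show either mutation, so the genotypes rest on the labels.

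Depth differed between the mutants. Each ob/ob library held between 5306632 and 8367593 counts, each db/db library between 2204686 and 3059777, and the ratio of their means was 2.75 (exact permutation test over 35 splits, two-sided p = 0.0286, the smallest this design allows). With every library thinned to 2204686 counts, 18279 ± 444 genes were detected in ob/ob (SD, n = 3) and 17904 ± 439 in db/db (SD, n = 4; exact permutation p = 0.257). Granulosa markers were high in all 7 libraries, with a summed level of 22302 to 29408 CPM in ob/ob and 22722 to 29331 CPM in db/db, and all 16 were tested. Fshr, the receptor of follicle-stimulating hormone, was at 134, 180 and 198 CPM in ob/ob and 270, 208, 284 and 147 CPM in db/db. Leukocyte markers summed to at most 13.1 CPM in ob/ob and 36.7 CPM in db/db, and 2 of the 15 were high enough to be tested. The 4 globin genes among the erythroid markers had no count in 6 of the 7 libraries, whereas Alas2, an enzyme of haem synthesis that red cell precursors express, was at 17.9, 81.6 and 25.4 CPM in ob/ob and 3.12 to 17.8 CPM in db/db. In libraries of this kind, fewer cells of a type and less RNA per cell cannot be told apart.

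The mutants differed little gene by gene. Of 12586 genes tested with edgeR, 2 had an adjusted p of 0.05 or less, both lower in ob/ob (0.0159% of the genes tested), and none was higher (0%). At an unadjusted p under 0.05, 582 genes were higher in ob/ob (4.62%) and 448 lower (3.56%). DESeq2 called more after adjustment, 43 higher (0.342%) and 29 lower (0.23%), and gave like shares at an unadjusted p under 0.05 (4.7% and 3.75%). As a simple description that ignores the model, a gene is said below to be higher without overlap when its CPM in all 3 ob/ob libraries was above that in all 4 db/db libraries, and lower without overlap in the opposite case. This held for 696 genes higher (5.53%) and 551 lower (4.38%), or 9.91% in either direction, and after thinning to equal depth for 5.01% and 4.31%; edgeR then called the same 2 genes (0.0172%). Members of gene lists are read below against these shares.

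The lean controls of the colonies, which share no library with the mutants, gave more calls than the mutants did. Between CT ob and CT db, edgeR called 282 genes higher (2.24%) and 552 lower (4.39%), and 9.8% of genes were higher and 11.4% lower without overlap. Over all 12586 genes the log2 difference between the mutants correlated with that between the controls (Pearson r = 0.472 across genes, which are not independent replicates), and 65.3% had the same sign in both. Of the 1247 genes that did not overlap between the mutants, 85.4% had the same sign between the controls and 342 (27.4%) were also without overlap the same way there. The 834 genes called between the controls had a median difference of 0.96 on the log2 scale in the controls and of 0.24, in the same direction, in the mutants. The test of whether the difference between the mutants was other than that between the controls called no gene in edgeR (0% in each direction); 645 (5.12%) and 376 (2.99%) genes passed an unadjusted p under 0.05 on the higher and lower side, and DESeq2 called 72.

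**Figure D1:**
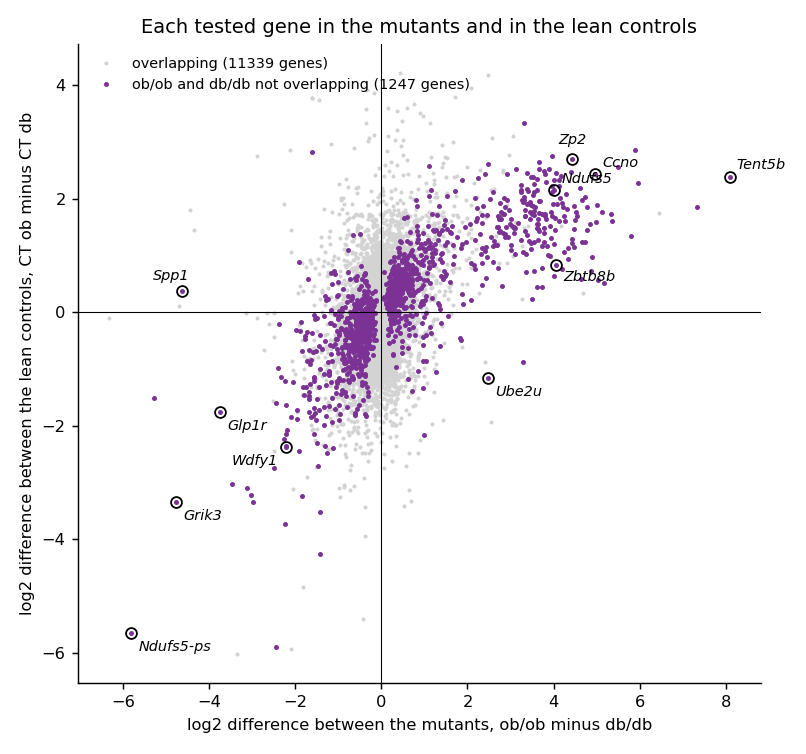
Log2 difference between the mutants (ob/ob minus db/db, x axis) and between the lean controls (CT ob minus CT db, y axis) for each tested gene; purple points are the 1247 genes that did not overlap between the mutants. The cloud leans along the diagonal (r = 0.472), Grik3 and Ndufs5-ps lie far below 0 on both axes, and Ube2u and Spp1 lie in quadrants of opposite sign.

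The first of the 2 called genes was a processed pseudogene of Ndufs5, which encodes an accessory subunit of respiratory complex I. Ndufs5-ps (chr16:42775994-42776312, + strand) stood at 0.518, 0.692 and 0.246 CPM in ob/ob and at 20.5, 38.3, 28.6 and 25.9 CPM in db/db. The parent gene Ndufs5 (chr4:123606481-123612002, - strand) showed the opposite, with 24.2, 35.2 and 27.1 CPM in ob/ob and 1.28, 0.430, 3.03 and 2.19 CPM in db/db. Neither gene overlapped between the mutants. The log2 difference was -5.80 (SE 0.494, edgeR adjusted p = 6.92e-05) for Ndufs5-ps and 4.02 (SE 0.897, edgeR adjusted p = 0.322) for Ndufs5.

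Because the copies are nearly identical, the counts of either one are uncertain. Aligned along the whole 319 bases of the pseudogene, the Ndufs5-203 transcript had the same base at 317 positions and differed at 2, both in the coding part of Ndufs5. The substitutions, counted from the pseudogene's 5′ end with the Ndufs5 base first, were T81C and A105G. The stretches around them are shown, from the GRCm39 reference and 5′ to 3′ on the strand of each gene, because these 2 bases are the only ones that differ between the copies within the aligned stretch; the capital marks the differing base.
Ndufs5, T81C, chr4:123609780-123609804 (- strand): agaacagccctaTaagaacgccgct
Ndufs5-ps, T81C, chr16:42776062-42776086 (+ strand): agaacagccctaCaagaacgccgct
Ndufs5, A105G, chr4:123609756-123609780 (- strand): tcggtgccacgcAtttgaaaaagag
Ndufs5-ps, A105G, chr16:42776086-42776110 (+ strand): tcggtgccacgcGtttgaaaaagag

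The sum of the copies did not share the difference. Ndufs5 and Ndufs5-ps together stood at 29.3 ± 5.84 CPM in ob/ob (SD, n = 3) and at 30.05 ± 7.07 CPM in db/db (SD, n = 4; exact permutation test, two-sided p = 0.914). What differed was the share of those counts on the pseudogene. It was 94.1%, 98.9%, 90.4% and 92.2% in the 4 db/db libraries, the lowest with a 95% Clopper-Pearson interval of 81.2 to 96.1%. In the ob/ob libraries it was 2.098%, 1.93% and 0.901%, the highest with an interval of 0.435 to 6.01%; these intervals cover counting error only. The control libraries did not all follow their colony. CT ob stood at 1.44%, 1.23% and 0.637%, whereas CT db spread over 50.0%, 40.6%, 95.6% and 100%.

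**Figure D2:**
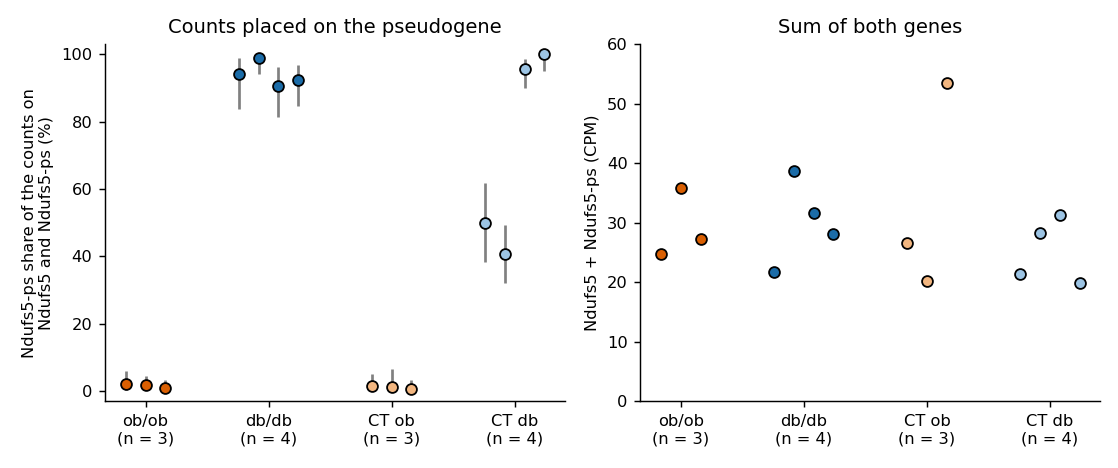
Left, the percentage of the counts on Ndufs5 and Ndufs5-ps that were placed on the pseudogene in each of the 14 libraries, with 95% Clopper-Pearson intervals as lines; right, their summed CPM. The db/db libraries lie above 90% and the ob/ob libraries below 3%, the 4 CT db libraries fall into a lower and a higher pair, and the sums of ob/ob and db/db overlap (means 29.3 and 30.05 CPM).

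The second called gene was Grik3 (chr4:125384202-125607966, + strand), a subunit of kainate-type glutamate receptors. It stood at 3.11, 1.80 and 3.45 CPM in ob/ob and at 72.5, 82.1, 83.1 and 68.8 CPM in db/db, with no overlap. The log2 difference was -4.77 (SE 0.428, edgeR adjusted p = 7.19e-05). Grik3 was also low in CT ob (6.32, 2.49 and 3.74 CPM) and higher in CT db (23.1, 29.8, 47.8 and 74.5 CPM), with a log2 difference of -3.33 there. The mutant difference exceeded that of the controls by 1.43 at an unadjusted p of 0.023, which did not hold after adjustment (edgeR adjusted p = 0.556).

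Of 27 ionotropic glutamate receptor and auxiliary subunit genes, 6 were high enough to be tested. Besides Grik3, the NMDA receptor subunit gene Grin2c was lower without overlap, at 3.62, 3.6 and 2.46 CPM in ob/ob and 5.97, 25.8, 26.8 and 7.19 CPM in db/db (log2 difference -2.34, edgeR adjusted p = 0.348). Grik5, which encodes another kainate receptor subunit, was higher without overlap, at 7.77 to 8.37 CPM in ob/ob and 2.81 to 5.59 CPM in db/db. The median of the 6 was -0.12.

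Lepr, Ndufs5 and Grik3 are all on chromosome 4, the last pair at 22.03 and 23.81 Mb from Lepr. Chromosome 4 had the highest share of genes that did not overlap between the mutants among the 20 chromosomes, 13.4% of 755 tested, against 9.69% on the other chromosomes. Between the controls the shares were 22.8% and 21.1%. Chromosome 6, which carries Lep, followed with 12.4%. On chromosome 4 the share was 16.5% of 85 genes within 10 Mb of Lepr, 7.89% of 76 at 10 to 20 Mb beyond it, 15.4% of 91 at 20 to 30 Mb, 16.3% at 30 to 40 Mb and 15.9% of 132 farther out. On the other side of Lepr it was 16.7% of 30 genes at 10 to 30 Mb and 9.63% of 218 beyond 30 Mb. The mutation, the linked DNA of the donor strain and the colony cannot be told apart by these groups.

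The 8 genes with the smallest p in each direction include the called pair on the lower side. The others of the 8 had edgeR adjusted p-values of 0.297 to 0.322, and DESeq2 called all of them. Among those higher in ob/ob was Ide, the protease that degrades insulin, at 687, 529 and 615 CPM against 350, 250, 357 and 389 CPM in db/db (log2 difference 0.86, SE 0.184). G6pdx, which opens the pentose phosphate pathway, was at 69.2, 60.6 and 86.3 CPM against 43.9, 33.5, 44.6 and 30.9 CPM (log2 difference 0.92). Phgdh, the first enzyme of serine synthesis, was at 56.3, 58.4 and 59.4 CPM against 32.8, 36.1, 18.2 and 20 CPM (log2 difference 1.12). These 3 genes were without overlap between the mutants and were also called between the controls, at log2 differences of 1.29, 1.02 and 1.21. They differ in that from Zbtb8b, a zinc finger gene on chromosome 4 at 49.7, 19.4 and 58.7 CPM in ob/ob and 5.12, 0, 2.16 and 2.81 CPM in db/db, whose levels overlapped between the controls. The difference of the differences was 3.21 for Zbtb8b at an unadjusted p of 0.00675.

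The other genes of this rank on the higher side were Ccno, Tent5b, 9130204K15Rik and Ndufs5. Tent5b had no count in any db/db library and stood at 17.9, 3.46 and 2.83 CPM in ob/ob, which is at least 24.4-fold higher when db/db is set at a floor of 3 counts over the group. Ccno, a cyclin family gene, was at 30.4, 11.8 and 7.63 CPM against 0.426, 0.430, 1.30 and 0 CPM. In both genes obHOM_106 was the highest library, a pattern taken up below with the oocyte markers. The log2 difference of 9130204K15Rik was 2.42.

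On the lower side, Wdfy1, which encodes an endosomal adaptor of Toll-like receptors, was at 13.5, 10.7 and 12.3 CPM in ob/ob and at 65.6, 52.0, 56.7 and 52.2 CPM in db/db (log2 difference -2.22, edgeR adjusted p = 0.297). In the controls 3 of 4 CT db libraries stood at 54.0 to 62.5 CPM and 1 at 10.99 CPM. Glp1r, the receptor of the incretin GLP-1, was at 1.04, 0.554 and 0.862 CPM in ob/ob and 10.2, 11.2, 4.76 and 18.4 CPM in db/db (log2 difference -3.74, SE 0.779). The Glp1r levels of the controls overlapped and were at most 6.01 CPM. AA465934, Stx7, which encodes a syntaxin of late endosomes, and Gm38243 were lower without overlap too, at log2 differences of -2.10, -1.05 and -1.28.

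Genes of the leptin pathway itself did not separate the mutants. Of 10 genes that act in leptin signalling, chosen by the study, 9 were tested and none was without overlap; their median log2 difference was 0.04, beside -0.01 over all genes. Jak2, the kinase bound to the receptor, was at 32.1, 23.8 and 25.2 CPM in ob/ob and 32.4, 24.9, 27.7 and 23.1 CPM in db/db. Stat3, its main target, was at 42.6, 55.9 and 46.9 CPM against 53.3, 31.8, 55.4 and 47.8 CPM. Socs3, which STAT3 induces and which blocks the receptor, spread from 4.14 to 28.0 CPM in ob/ob, a range that held all 4 db/db values of 7.25 to 15.2 CPM. The smallest p was that of Ptpn2, a phosphatase that acts on JAK and STAT proteins, with a log2 difference of -0.61 (SE 0.278, edgeR adjusted p = 0.591) and overlapping levels of 115 to 167 and 156 to 339 CPM.

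The scale decides how these genes look. On log2(count + 1) with no correction for depth, the median over the leptin signalling genes was 1.49 and 7 of the 10 were higher in ob/ob without overlap. On that scale 82.4% of all tested genes were so, with a median of 1.44, in libraries of 2.75 times the depth.

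The wider JAK, STAT and SOCS families gave 0 of 23 tested members without overlap and none at an unadjusted p under 0.05 in either direction. In insulin and IGF signalling, 1 of 30 (3.33%) was higher without overlap and 4 (13.3%) were lower, beside 5.53% and 4.38% of all genes. Pik3r2, a regulatory subunit of PI3-kinase, was the higher one, at 74.0, 67.0 and 54.4 CPM against 45.6, 44.7, 52.4 and 53.4 CPM. Foxo3, a transcription factor that this kinase pathway holds in check, was at 56.4, 44.6 and 46.5 CPM in ob/ob and 67.8, 70.1, 60.2 and 68.4 CPM in db/db (log2 difference -0.44, edgeR adjusted p = 0.462). Irs2, an insulin receptor substrate, was at 2.24 to 5.91 CPM against 6.82 to 9.53 CPM, Insr, the insulin receptor, at 45.7 to 66.0 CPM against 66.9 to 74.5 CPM, and Rictor, the defining subunit of mTORC2, at 40.4 to 47.4 CPM against 49.9 to 60.6 CPM. These 4 were each lower in ob/ob by less than 1 on the log2 scale, with edgeR adjusted p-values of 0.462 to 0.877. The median of the list was -0.10. At equal depth 1 of the 30 was higher and 1 lower without overlap.

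Hormone receptors were mixed. Among 22 tested metabolic and steroid hormone receptors, 2 were higher and 1 lower without overlap. The thyroid hormone receptor Thrb was at 10.01, 7.20 and 8.37 CPM in ob/ob and 3.84, 6.45, 1.73 and 3.44 CPM in db/db (log2 difference 1.14, edgeR adjusted p = 0.464). The retinoid X receptor Rxrb was at 33.8, 32.4 and 37.6 CPM against 45.2, 45.6, 44.2 and 41.9 CPM. The growth hormone receptor Ghr had overlapping levels of 4.29 to 15.6 and 15.1 to 50.3 CPM, at a log2 difference of -1.49 and an edgeR adjusted p of 0.464.

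Among the gene lists with at least 15 tested members, the highest share of genes higher without overlap was that of the unfolded protein response, by which cells raise chaperones and degradation factors of the endoplasmic reticulum when unfolded proteins build up there. The sensors IRE1, PERK and ATF6 feed it, and ATF6 and XBP1 act on chaperone genes through ER stress response elements in their promoters. Of 26 genes in the list, 24 were tested and 8 (33.3%) were higher in ob/ob without overlap, beside 5.53% of all genes, while none was lower. At an unadjusted p under 0.05 the counts were 9 higher and 0 lower; edgeR called none after adjustment and DESeq2 called 3. The list median was 0.31 on the log2 scale, 21 of the 24 differences were positive, and the summed level was 13892 to 16056 CPM in ob/ob and 10407 to 11528 CPM in db/db.

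Among the chaperones, Hspa5, which encodes the HSP70 of the endoplasmic reticulum (BiP), was at 3398, 3218 and 3960 CPM in ob/ob and at 2583, 2581, 2488 and 2515 CPM in db/db (log2 difference 0.47, SE 0.145, edgeR adjusted p = 0.348, DESeq2 adjusted p = 0.0412). Hsp90b1, the HSP90 of that compartment, was at 2106, 2445 and 2239 CPM against 1268, 1900, 1887 and 1549 CPM. Hyou1, which exchanges nucleotide on BiP, was at 284, 189 and 295 CPM against 162, 148, 135 and 178 CPM (log2 difference 0.72, SE 0.168, DESeq2 adjusted p = 0.0317). None of these overlapped between the mutants. Sdf2l1, a partner of BiP, was at 76.8, 103.3 and 103.3 CPM against 42.6, 57.2, 56.7 and 42.8 CPM, the largest log2 difference among the 8 at 0.93.

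Among the disulfide isomerases, Pdia4 was at 618, 618 and 783 CPM in ob/ob and 432, 428, 389 and 405 CPM in db/db (log2 difference 0.70, SE 0.178, DESeq2 adjusted p = 0.0397). Pdia6 was at 696, 621 and 854 CPM against 460, 474, 414 and 437 CPM (log2 difference 0.70). Pdia3 had a like difference of 0.71, but obHOM_41 at 1645 CPM lay below HOM_24 at 1915 CPM. Creld2, which encodes a further luminal protein, was at 181 to 243 CPM against 104 to 165 CPM, and Sel1l, the adaptor of the HRD1 ubiquitin ligase that clears misfolded proteins, was at 349 to 432 CPM against 216 to 345 CPM.

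Other members of the list overlapped between the mutants, among them the following 4, chosen after their values were seen. Xbp1, the transcription factor spliced by IRE1, was at 268, 317 and 255 CPM in ob/ob and 235, 288, 271 and 242 CPM in db/db (log2 difference 0.12). Ddit3, which encodes the stress factor CHOP downstream of PERK, was at 5.004 to 6.65 CPM against 3.12 to 7.79 CPM. Herpud1 and Dnajb9, a degradation factor and a co-chaperone, had negative log2 differences of -0.38 and -0.41 with overlapping levels. The cytosolic heat shock and chaperonin list had 0 of 24 members without overlap and none at an unadjusted p under 0.05.

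At equal depth 9 of the 24 were higher without overlap, and without obHOM_106 10 were. Between the controls 6 of 24 were higher and 2 lower without overlap, beside 9.8% and 11.4% of all genes, with a median of 0.19. There edgeR called 3 members higher and 2 lower. Pdia4, Pdia6 and Hyou1 differed there by 0.83, 0.72 and 0.67 on the log2 scale, each called by edgeR. Hspa5 did not (0.13), and its 3 CT ob libraries at 2904 to 3471 CPM overlapped the 4 CT db libraries at 2555 to 3253 CPM. In the edgeR test of the difference of the differences, 2 of the 24 passed an unadjusted p under 0.05. The smallest edgeR adjusted p among them was 0.537.

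**Figure D3:**
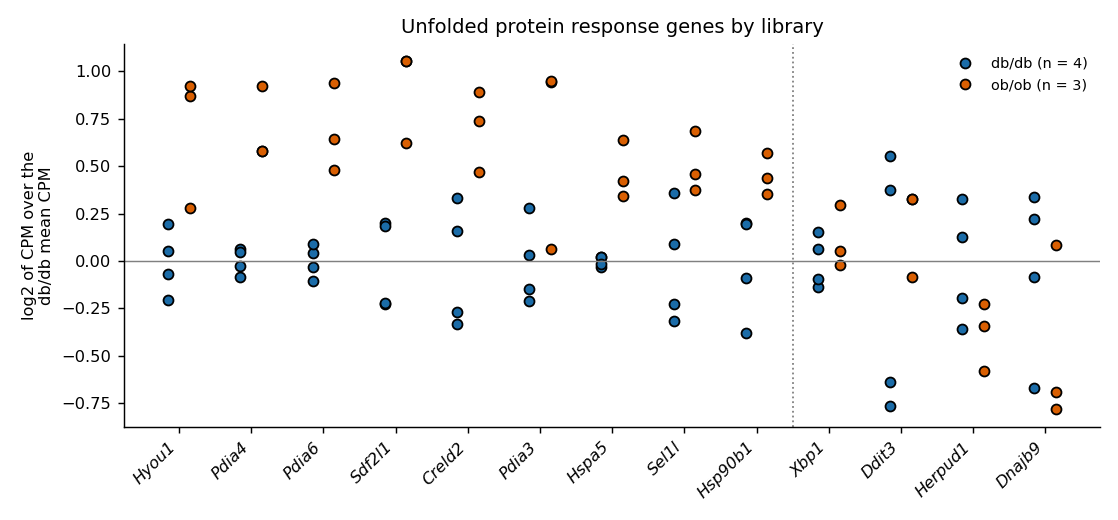
Log2 of the CPM of each ob/ob and db/db library over the db/db mean CPM for 13 unfolded protein response genes (1 point per library). Left of the dotted line all 3 ob/ob libraries lie above the db/db libraries, save for 1 ob/ob library of Pdia3; to the right of it Xbp1, Ddit3, Herpud1 and Dnajb9 overlap.

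Promoter sequences were taken from the GRCm39 reference genome, from 250 bases before to 50 bases from each gene start in the GENCODE annotation. They were available for all 24 tested members and were searched on both strands. The ER stress response element, CCAAT and CCACG with 9 bases of any kind between them, was in 7 of the 24 (29.2%), beside 0.125% of 21614 promoters of protein-coding genes. Its shorter form, ATTGG and CCACG with 1 base between them, was in 3 (12.5%), beside 0.0694%, and the ATF4 and CHOP core TGATGCAA in 2 (8.33%), beside 0.995%; no matches overlapped. Among tested protein-coding genes the shares were 0.14%, 0.0966% and 0.544% in the same order. The list holds known genes of this response, so its shares do not bear on the difference between the mutants. One of the first pair of elements was present in 5 of the 8 members higher without overlap and in 5 of the other 16. For each of these 5 members 1 match is shown, although Hsp90b1 held a further match to the first element and Hyou1 a further match to the shorter form, because ATF6 and XBP1 are known to act through elements of this kind; capitals mark the fixed letters on the strand of the gene, and a match is a description of the sequence, not of binding.
Hspa5, chr2:34662032-34662060 (+ strand): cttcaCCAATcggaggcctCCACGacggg
Hsp90b1, chr10:86541497-86541525 (- strand): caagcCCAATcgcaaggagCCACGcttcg
Pdia6, chr12:17316487-17316515 (+ strand): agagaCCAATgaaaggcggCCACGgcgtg
Creld2, reverse complement, chr15:88703718-88703746 (+ strand): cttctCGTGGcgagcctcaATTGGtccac
Hyou1, short form, reverse complement, chr9:44290757-44290777 (+ strand): ttctaCGTGGaCCAATggggt

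Transcripts of the oocyte were higher in the ob/ob libraries, although oocytes had been removed from the cells. Of 14 oocyte markers 13 were tested, and 12 were higher without overlap, beside 5.53% of all genes; Kit was the exception, with overlapping levels and a log2 difference of 0.57. The median log2 difference was 3.48. Their summed level was 1030, 363 and 254 CPM in ob/ob and 63.9, 116, 108 and 66.6 CPM in db/db. None of the markers was at 0 in an ob/ob library, while 5, 1, 1 and 4 were at 0 in the db/db libraries.

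Single members show the order of the libraries. Zp2, a protein of the zona pellucida, was at 114, 41.8 and 17.1 CPM in ob/ob and at 0.853, 3.44, 6.93 and 0 CPM in db/db (log2 difference 4.43, SE 1.19, edgeR adjusted p = 0.336). Gdf9, a growth factor that the oocyte sends to granulosa cells, was at 199, 52.6 and 23.9 CPM against 2.56, 13.8, 16.9 and 2.81 CPM. Mos, the kinase that holds the egg in meiotic arrest, was at 26.9, 6.37 and 8.87 CPM against 0, 1.72, 0.433 and 1.25 CPM and was called by DESeq2 (adjusted p = 0.031), as was Npm2. The library obHOM_106 was the highest for all of these. In the controls no oocyte marker was without overlap: the sums ran from 124 to 1375 CPM in CT ob and from 45.03 to 335 CPM in CT db, with a median log2 difference of 1.90.

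**Figure D4:**
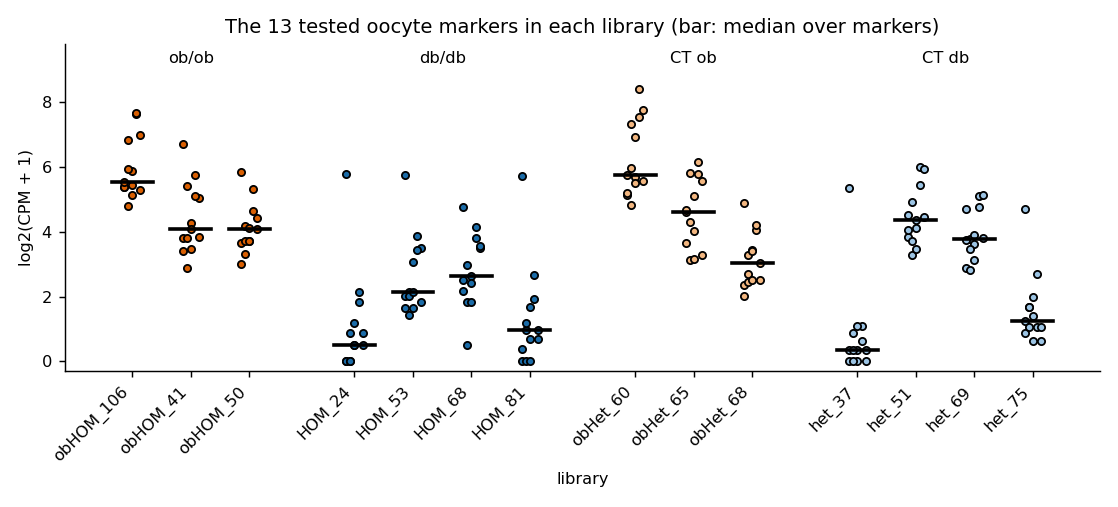
Level of the 13 tested oocyte markers, in log2(CPM + 1), in each of the 14 libraries by group; points are markers and the bar is their median. The medians of the 3 ob/ob libraries lie above those of the 4 db/db libraries, with obHOM_106 highest, and the control groups overlap.

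Many of the genes higher in ob/ob stood highest in the library obHOM_106. Of the 582 genes higher at an unadjusted p under 0.05, 216 (37.1%) were at least 2-fold higher in obHOM_106 than in both other ob/ob libraries, beside 3.38% of all genes. Among the 448 lower genes the share was 3.35%. It was 22 of 43 (51.2%) among the higher genes called by DESeq2 and 0 of 29 among the lower ones. Genes chosen for a high ob/ob level tend to include an ob/ob library far above the others, so these baselines are uneven. The share was not computed for obHOM_41 or obHOM_50. Without obHOM_106, the counts at an unadjusted p under 0.05 were 330 higher and 353 lower, edgeR called the same 2 genes, and the oocyte median was 2.40 with all 13 markers tested higher without overlap. The edgeR counts at that threshold were 797 higher and 598 lower without obHOM_41, and 605 and 340 without obHOM_50. The part of oocyte RNA in the other differences was not tested.

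Granulosa genes were alike in sum, of which Gja1 alone held a large part, and differed in single members. Amh, the anti-Müllerian hormone of growing follicles, was at 647, 58.6 and 512 CPM in ob/ob and 192, 40, 115 and 40.6 CPM in db/db (log2 difference 2.07, edgeR adjusted p = 0.416). Here obHOM_41 lay within the db/db range. Cyp19a1, the aromatase that makes oestradiol, spread over 17.9 to 83.6 CPM in ob/ob and 6.56 to 105 CPM in db/db. Gja1, the gap junction protein connexin 43 that couples granulosa cells, was the single marker lower without overlap, at 10308, 10468 and 12264 CPM against 12863, 12796, 13255 and 15419 CPM (log2 difference -0.30). Its difference was wider between the controls (-1.47), at an unadjusted p of 0.000393 for the difference of the differences.

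Steroid synthesis, 18 tested genes, had 2 members higher and 1 lower without overlap and a median of 0.06. Akr1c13, an aldo-keto reductase, was at 7.77, 1.94 and 14.7 CPM in ob/ob and 0.853, 0, 0.866 and 1.25 CPM in db/db (log2 difference 3.35, DESeq2 adjusted p = 0.0358). Srd5a1, a steroid 5-alpha-reductase, was at 19.5 to 32.4 CPM against 13.3 to 18.3 CPM. Fdx1, the electron donor of mitochondrial steroid hydroxylases, was lower, at 51.8, 63.3 and 52.8 CPM against 120, 86.9, 76.6 and 72.8 CPM (log2 difference -0.67, edgeR adjusted p = 0.402). Star, which brings cholesterol into mitochondria, was at 8.11, 3.18 and 4.19 CPM against 23.02, 13.3, 3.897 and 11.9 CPM, overlapping through HOM_68.

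Genes of ovulation and luteinisation overlapped singly in all 16 tested members, but 13 of the differences were negative, with a median of -0.58. Their summed level was 309 to 385 CPM in ob/ob and 465 to 582 CPM in db/db, so the sums did not overlap. Between the controls the median was -0.01. In the mutants 2 passed an unadjusted p under 0.05, both lower in ob/ob. They were Star, and Runx1, a transcription factor induced in ovulatory follicles, at 124, 83.9 and 87.1 CPM against 94.6, 192, 139 and 233 CPM. In prostaglandin synthesis and action, the receptor Ptger2 was the single one of 12 without overlap, at 3.28, 2.63 and 2.22 CPM in ob/ob and 9.38, 7.74, 6.06 and 19.1 CPM in db/db (log2 difference -1.97, DESeq2 adjusted p = 0.050). Ptgds, a prostaglandin D synthase, had 233 CPM in HOM_24 and 0.625 to 14.2 CPM in the other mutant libraries. The same library held the theca enzyme Cyp17a1 at 256 CPM, against 3.32 to 21.9 CPM elsewhere among the mutants. Theca and stroma markers summed to 20.8 to 68.9 CPM in ob/ob and 41.6 to 362 CPM in db/db, with Pdgfra and Mgp lower without overlap at log2 differences of -1.16 and -1.42, and their part in the lower levels of Star, Ptgds and Fdx1 was not tested.

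In gonadotropin and cAMP signalling, 2 of 29 (6.9%) were higher and 1 (3.45%) lower without overlap, near the 5.53% and 4.38% of all genes. The cAMP phosphodiesterases Pde4a (2.76 to 3.88 against 0.426 to 1.30 CPM) and Pde3a (6.16 to 19.2 against 2.5 to 6.06 CPM) were the higher pair; Pde3a is best known from the oocyte and was highest in obHOM_106. Atf1, a transcription factor of the CREB family, was at 71.1, 78.4 and 73.9 CPM in ob/ob and 107, 99.8, 98.7 and 106 CPM in db/db (log2 difference -0.46, edgeR adjusted p = 0.344), and differed by -1.02 between the controls. At equal depth 0 list members were higher and 2 lower without overlap among 25 tested.

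In energy metabolism few list members were without overlap, although most differences were positive. Cholesterol synthesis and uptake (30 tested) and the TCA cycle (21 tested) had no member without overlap, at medians of 0.20 and 0.10. Their positive differences numbered 22 and 16. Of 24 glycolysis and lactate genes, 1 (4.17%) was higher without overlap, 20 differences were positive and the median was 0.18. Over all alternatives 1 to 5 of the glycolysis and lactate genes were higher and 0 to 2 lower without overlap. Their median ran from -0.077 to 0.38, highest without obHOM_106. Genes outside the lists that link glucose to other routes were called by DESeq2: Pgm1, which interconverts glucose phosphates, was at 97.7, 190 and 129 CPM in ob/ob and 79.7, 60.6, 64.9 and 79.1 CPM in db/db (log2 difference 0.96). Txnip, which binds thioredoxin, restrains glucose uptake and is induced by glucose, was at 411, 281 and 332 CPM against 739, 511, 693 and 1261 CPM (log2 difference -1.23, SE 0.327, edgeR adjusted p = 0.334, DESeq2 adjusted p = 0.0403). Neither gene overlapped between the mutants. Bpgm, which makes 2,3-bisphosphoglycerate, was at 82.8, 31.0 and 36.9 CPM against 13.8 to 17.9 CPM, highest in obHOM_106.

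Lipid metabolism was near the background by count. Of 45 genes of fatty acid and triglyceride metabolism, 2 were higher and 3 lower without overlap, and 1 and 4 passed an unadjusted p under 0.05. Elovl5, an elongase of polyunsaturated fatty acids, was at 145, 171 and 189 CPM in ob/ob and 338, 216, 275 and 228 CPM in db/db (log2 difference -0.65, DESeq2 adjusted p = 0.050). Agpat3, an acyltransferase of phospholipid synthesis, was at 38.7 to 45 CPM against 53.4 to 68.6 CPM. Cd36, the fatty acid transporter, was at 140, 118 and 120 CPM against 188, 200, 328 and 492 CPM (log2 difference -1.26), and differed by -2.48 between the controls. Outside the list, Ugcg, which makes glucosylceramide, Chpt1, which makes phosphatidylcholine, and Mboat1, a lysophospholipid acyltransferase, were also lower without overlap, at log2 differences of -0.90, -0.81 and -1.20 and edgeR adjusted p-values of 0.322.

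Antioxidant and glutathione genes had 1 of 36 higher and 3 lower without overlap, with a median of -0.03. Gpx3, a secreted glutathione peroxidase, was at 56.1, 58.0 and 60.1 CPM in ob/ob and 214, 123.4, 149 and 242 CPM in db/db (log2 difference -1.65, SE 0.553, edgeR adjusted p = 0.392). The membrane-bound glutathione transferases Mgst3 and Mgst1 were at 24.6 to 27.6 CPM against 41.1 to 79.1 CPM and at 182 to 248 CPM against 262 to 384 CPM. The ob/ob libraries lay close together for Gpx3 and Mgst3, while the db/db libraries spread.

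The machinery of respiration, translation and protein turnover did not separate the mutants. In nuclear genes of complex I, 3 of 38 were higher without overlap, among them Ndufs5 itself, with a median of 0.01. Ndufb6, another accessory subunit, was at 87.5, 89.4 and 75.7 CPM against 58.0, 70.5, 72.7 and 66.6 CPM; between the controls it went the other way (-0.97), at the smallest unadjusted p of the genes named here for the difference of the differences, 1.97e-05 (edgeR adjusted p = 0.176). Complexes II to V had 1 of 40 higher and 1 lower without overlap, mitochondrial genome mRNAs 0 of 8, mitochondrial ribosomal proteins 2 of 77 higher, cytosolic ribosomal proteins 0 of 82 and the proteasome 1 of 47 higher. Their medians lay between -0.16 and 0.07, and none of the cytosolic ribosomal, mitochondrial ribosomal and proteasome genes passed an unadjusted p under 0.05. Counts on mitochondrial genome genes took 6.10% of the total in ob/ob and 5.95% in db/db (exact permutation p = 0.743).

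Of 48 tested cell cycle and replication genes 7 (14.6%) were higher without overlap and 2 (4.17%) lower, beside 5.53% and 4.38% of all genes. At equal depth 5 were higher and 1 lower, beside 5.01% and 4.31% of all genes. The list median was 0.09, and 3 and 1 passed an unadjusted p under 0.05, beside 4.62% and 3.56% of all genes. The smallest p was that of Cdkn1b, the cyclin kinase inhibitor p27, at 53.3, 95 and 45.3 CPM in ob/ob and overlapping levels of 71.6 to 136 CPM in db/db (log2 difference -0.77, edgeR adjusted p = 0.434). The 7 higher ones included Mcm3 and Mcm5, subunits of the replicative helicase, and Cdt1, Cdc6, Mcm10 and Cdc45, which load or start it. Their regulator E2f1 was the last of the 7. Cdt1 was at 58.7, 41.4 and 69.7 CPM in ob/ob and 38.8, 40.4, 40.3 and 35 CPM in db/db, and Cdc6 at 73.7, 56.4 and 65.8 CPM against 40.9, 44.3, 39.8 and 42.8 CPM. Their log2 differences were 0.27 to 0.64, with edgeR adjusted p-values of 0.462 to 0.798. The lower pair was Rrm2, a subunit of ribonucleotide reductase, at 192 to 249 CPM against 253 to 350 CPM, and the cyclin kinase inhibitor Cdkn2c.

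The maintenance methyltransferase of DNA went the same way. Dnmt1 was at 184, 137 and 176 CPM in ob/ob and 127, 131, 115 and 116 CPM in db/db (log2 difference 0.44), and its partner Uhrf1 at 155, 154 and 154 CPM against 80.6, 136, 125 and 109 CPM (log2 difference 0.46). With Pcgf1 these were the 3 of 25 DNA methylation and Polycomb genes higher without overlap; Rnf2, a catalytic subunit of Polycomb complex 1, was lower, at 76.2 to 104 CPM against 106 to 176 CPM. Dnmt1 and Uhrf1 were also called between the controls, at 0.62 and 0.73. Dnmt1 and Uhrf1 are abundant in oocytes as well as in dividing cells.

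In TGF-beta, BMP and activin signalling, 1 of 40 was higher and 3 lower without overlap. Tgfb3, a ligand, was at 25.9, 12.3 and 21.1 CPM in ob/ob and 38.8, 49.5, 31.2 and 45 CPM in db/db (log2 difference -1.06, SE 0.329, edgeR adjusted p = 0.348), and the co-receptor Tgfbr3 at 49.2, 35.2 and 54.5 CPM against 84.8, 66.2, 74.5 and 123.4 CPM (log2 difference -0.92). Tgfb2 went the other way, at 22.95, 8.03 and 5.29 CPM against 0, 1.29, 3.03 and 1.25 CPM, with obHOM_106 highest. In WNT signalling 3 of 34 were higher and 1 lower without overlap: Ctnnb1, which encodes beta-catenin, was at 169, 151 and 192 CPM against 138, 109, 133 and 131 CPM, Rnf43, a ligase that removes the WNT receptor, at 3.88 to 8.25 CPM against 1.29 to 3.12 CPM, and Rspo2, a WNT agonist of the oocyte, at 38.5, 7.20 and 10.2 CPM against 0 to 2.16 CPM, highest in obHOM_106.

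Of 18 Notch and Hedgehog genes 3 (16.7%) were higher without overlap and 0 lower, beside 5.53% and 4.38% of all genes. The differences were positive in 9 and negative in 9, with a median of -0.08. At equal depth 2 of the 18 were higher and 1 lower. Rfng, a sugar transferase that tunes Notch, was at 15.2, 14.3 and 19.1 CPM in ob/ob and 9.8, 8.602, 8.66 and 9.06 CPM in db/db (log2 difference 0.84, edgeR adjusted p = 0.348). Jag1, a Notch ligand that oocytes present to granulosa cells, was at 55.0, 9.69 and 15.6 CPM against 2.81 to 8.602 CPM, highest in obHOM_106. The Hippo transcription factor Tead2 was at 16.9, 32.3 and 26.2 CPM against 47.3, 40.4, 39.0 and 40 CPM (log2 difference -0.72), and had the opposite sign between the controls (0.59; unadjusted p of 0.00352 for the difference of the differences). Of 11 tested ephrins and Eph receptors, 2 (18.2%) were higher without overlap, beside 5.53% of all genes. They were the ephrin ligands Efna2 and Efnb2, at 6.21 to 10.8 CPM against 2.81 to 4.26 CPM and 3.45 to 5.18 CPM against 1.25 to 3.01 CPM.

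Of 19 collagens and 16 laminin and basement membrane genes, 1 each was higher without overlap; the latter was Lamb2, a laminin chain, at 42.6, 43.9 and 45.1 CPM in ob/ob and 30.7, 31.0, 33.3 and 29.4 CPM in db/db (log2 difference 0.50, edgeR adjusted p = 0.397). Of 23 connexins, cadherins and integrins, 1 was higher and 2 (8.7%) lower without overlap; the integrin gene Itgb5 was at 88.5, 155 and 68.3 CPM against 167, 163, 198 and 215 CPM. In the ADAMTS, MMP and TIMP families 1 of 20 was higher and 3 (15%) lower, beside 4.38% of all genes; the matrix metalloproteinase Mmp11 was at 43.8, 43.8 and 44.6 CPM against 93.8, 49.0, 61.1 and 111 CPM. Syndecan Sdc4 was at 99.6 to 156 CPM against 168 to 254 CPM.

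Voltage-gated ion channels gave 1 (4.17%) higher and 4 (16.7%) lower without overlap among 24 tested, beside 5.53% and 4.38% of all genes. At equal depth 0 were higher and 3 lower among 16 tested. The potassium channels Kcnk5 (18.97 to 21.1 against 25.5 to 73.1 CPM), Kcnt2 (24.5 to 36.7 against 50.8 to 77.9 CPM) and Kcnq5 (15.2 to 20.4 against 26.9 to 40.3 CPM) were lower in ob/ob by 1.02, 1.08 and 0.91 on the log2 scale, at edgeR adjusted p-values of 0.357 to 0.402. Of 12 tested Hox genes none was without overlap and 11 had a negative difference; Hoxd11 and Hoxd10 were at 60.2 and 56.3 CPM in HOM_68 and at 11.2 CPM or less in the other mutant libraries. Of 348 Zfp zinc finger genes 14 (4.02%) were higher and 12 (3.45%) lower without overlap, beside 5.53% and 4.38% of all genes. Between the controls 14 were higher and 104 lower, beside 9.8% and 11.4% of all genes. Zfp57, which guards imprinted genes and is made in the oocyte, was at 60.1, 15.2 and 16.7 CPM against 1.56 to 3.41 CPM, highest in obHOM_106.

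Immune genes were few and did not separate the mutants. Of 20 inflammasome and macrophage attractant genes that the study chose, 10 were tested, with 1 higher and 1 lower without overlap and a median of -0.25. Rarres2, which encodes the attractant chemerin, was at 5.52, 6.78 and 3.45 CPM in ob/ob and 15.8, 8.17, 11.3 and 10.6 CPM in db/db (log2 difference -1.12, edgeR adjusted p = 0.677). Il18, a cytokine released by inflammasomes, was at 3.45, 0.554 and 0.739 CPM against 10.7, 2.58, 2.60 and 2.81 CPM, overlapping through obHOM_106. Of 25 interferon response and antigen presentation genes, 0 were without overlap and 0 passed an unadjusted p under 0.05, with 5 of 25 differences positive and a median of -0.21.

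**Figure D5:**
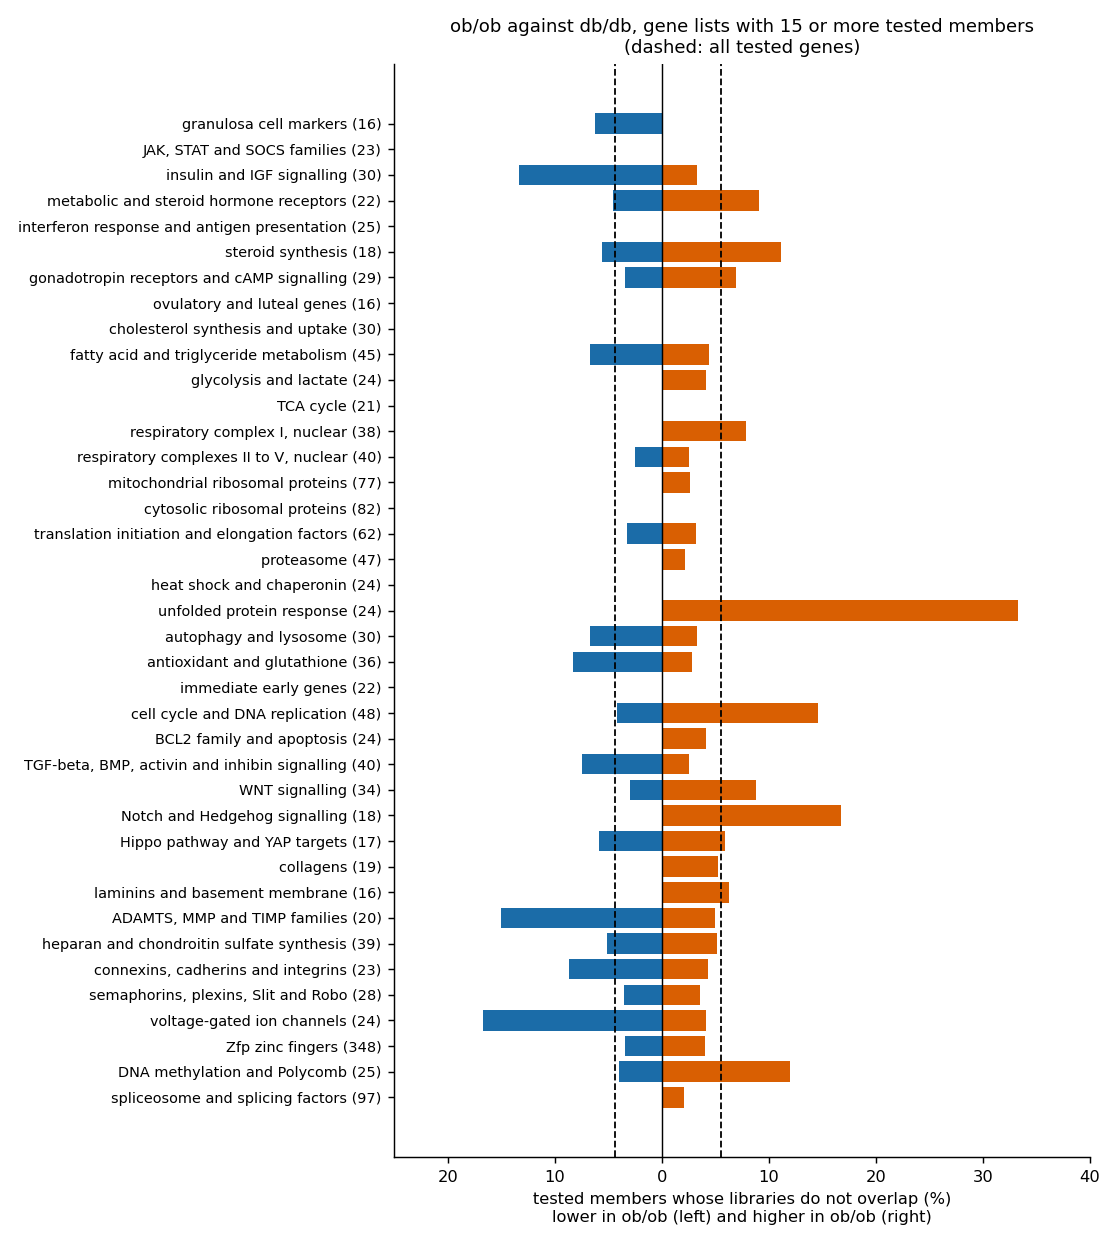
Percentage of the tested members of each gene list that were lower (bars to the left) or higher (bars to the right) in ob/ob without overlap, for the lists with at least 15 tested members, whose number is in brackets. The dashed lines mark all tested genes (4.38% lower, 5.53% higher); the unfolded protein response reaches 33.3% on the higher side.

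Outside the lists, Ube2u, a ubiquitin-conjugating enzyme gene on chromosome 4, was at 4.14, 6.37 and 6.40 CPM in ob/ob and 0.853, 2.15, 0.433 and 0.625 CPM in db/db (log2 difference 2.47), while the controls were without overlap in the opposite direction (-1.16). Its difference of the differences had an unadjusted p of 0.000308 and an edgeR adjusted p of 0.189. Spp1, which encodes osteopontin, was at 0, 0.554 and 0.246 CPM against 1.28, 23.7, 4.33 and 1.56 CPM, without overlap, and the controls overlapped.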

How the data were processed

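RNA-seq libraries of granulosa cells (Smart-seq2 chemistry, 75 bp single reads, no molecular identifiers) were analysed from the deposited table of raw counts per gene, which the authors made from their reads. The submitters' processing notes name FastQC, Trim Galore 0.6.2, HISAT2 2.1.0 and GRCm38, whereas the methods of the study name another aligner and GRCm39; 54749 of 55414 identifiers (98.8%) matched the GRCm39 annotation used here for symbols and positions. A gene-level count of nearly identical copies depends on how the aligner placed such reads.

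Counts of all 14 libraries in 4 groups were fitted with edgeR 4.0.16 (R 4.3.3), with TMM factors, filterByExpr (minimum count 10, minimum total 15), quasi-likelihood tests and Benjamini-Hochberg adjustment over 12586 genes, called at an adjusted p of 0.05 or less. The study itself used DESeq2; DESeq2 1.42.0 and limma-voom (limma 3.58.1) were alternatives. A DESeq2 adjusted p refers to its Wald test. CPM values used TMM factors; log2 differences are ob/ob minus db/db. Standard errors belong to the log2 difference. Library-level values were compared by exact permutation tests, two-sided, over 35 splits. Equal depth means thinning to 2204686 counts, drawn 5 times. On simulated counts with 200 genes changed in ob/ob against db/db, edgeR recovered 41.5% of 2-fold changes among 12502 genes and 96% of 4-fold changes among 12512 genes. It made 7 and 15 false calls. DESeq2 recovered 55% and 98.5%, with 37 and 36 false calls. The changed genes were drawn only from genes above the lowest mean levels, so recovery of the lowest genes was not tested. Each gene was simulated independently, with no library set apart in many genes at once as obHOM_106 was.

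Eligible to be named were Lep and Lepr, genes called between the mutants, the 8 with the smallest p in each direction, the leptin signalling genes, and up to 3 members of each of 52 lists with the smallest p; not all of these are printed. All others, including members named for not overlapping between the groups, were chosen after their values were seen. The members and lists were chosen with earlier results of these data known. Markers at 3 counts or fewer in a group were given no fitted fold. Columns were tied to groups by their names; no replicate number links them to single samples.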

Additional observations from a re-analysis of the deposited data

Results flagged for a closer look

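Among 112 groups of 4 db/db or CT db values examined, 10 had 1 library set apart from the other 3 by Dixon's ratio at the 95% level; chance gives about 1 in 20. HOM_24 (db/db) was set apart for Cyp17a1 at 256 CPM (next 21.5), Ptgds at 233 CPM (next 14.2), Socs3 at 7.25 CPM (next 14.1) and Pde4a at 0.426 CPM (next 1.25), and for its share of counts on the 18S ribosomal gene, 12.8% (next 1.98%). HOM_81 was set apart for Sh2b2 at 20.6 CPM (next 6.39) and Kcnk5 at 73.1 CPM (next 33.1). HOM_53 stood out for Spp1 at 23.7 CPM (next 4.33) and Nr1h3 at 0.430 CPM, where the other 3 libraries had no count. HOM_68 stood out for Hoxd11 at 60.2 CPM (next 7.81).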

How the results depend on the processing

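The count of 2 genes between the mutants came out the same with limma-voom, RLE or upper quartile factors, library totals alone, equal depth (5 draws), robust dispersion and without the 18S gene, each calling Grik3 and Ndufs5-ps. DESeq2 called 72, edgeR on the 7 mutant libraries 4 (Wdfy1 and Ndufs5 added), no filter 535 of 34753 genes (388 higher, 147 lower), and at least 10 counts in every library 1, since Ndufs5-ps was then not tested. DESeq2 on the 7 mutant libraries, an alternative chosen after seeing the data, called 238. Between the controls DESeq2 called 1563, library totals alone 261 and no filter 1727, beside 834. For the difference of the differences DESeq2 called 72 and no filter 329. The causes were not tested. Leaving out 1 mutant library at a time gave 2 to 2 genes between the mutants, 604 to 959 between the controls and 0 to 1 for the difference of the differences (Ap3s1 without HOM_24). The ratio of totals was 2.45 to 3.06 (exact permutation p 0.0667 to 0.1, the smallest possible there), and the gap in detected genes at equal depth 185 to 619; without thinning it was 3683 (exact permutation p = 0.0286).

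The gap in the mitochondrial share ran from -0.241 to 0.492 percentage points and was negative without obHOM_41 (-0.241) and HOM_53 (-0.0457). That in the 18S share ran from -2.91 to 2.51 and was positive without obHOM_106 (0.918), obHOM_41 (0.996) and HOM_24 (2.51). Small leptin pathway differences turned sign: Jak2 with limma-voom (-0.0027) and without obHOM_106 (-0.14), HOM_53 (-0.033) or HOM_81 (-0.069); Socs3 with limma-voom (-0.30), library totals alone (-0.00043) and without obHOM_50 (-1.18) or HOM_24 (-0.15); Stat3 at equal depth (-0.025) and without obHOM_41 (-0.076) or HOM_53 (-0.10); Stat5a without HOM_81 (-0.073). Over the 7 fits without 1 library these differences ran from -0.14 to 0.10 for Jak2, -1.18 to 0.46 for Socs3, -0.10 to 0.13 for Stat3 and -0.073 to 0.34 for Stat5a. The unfolded protein response had 8 to 11 members higher without overlap and medians of 0.27 to 0.39 over all alternatives. The oocyte median was 0.58 to 4.002, lowest where at least 10 counts in every library were required and no member was without overlap. No paired analysis was possible because the columns of the count table carry no replicate number of the labels. The lower depth of db/db limits what low genes there can show.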
